A study of Mus musculus with 10 samples.

Results

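The genes described here are Hcn2, Hcn3 and Hcn4, which encode pore-forming subunits of the hyperpolarization-activated, cyclic nucleotide-gated (HCN) channels, and Pex5l, which encodes TRIP8b, an auxiliary subunit of these channels. They were selected by their symbols and are 4 of the 54838 gene identifiers in the count files. Ribosome-bound mRNA was collected by translating ribosome affinity purification (TRAP), in which ribosomes carrying an EGFP-tagged L10a protein are pulled down with antibodies to EGFP, and was sequenced from 5 dorsal and 5 ventral hippocampal libraries. Every library, dorsal or ventral, came from male C57BL/6 mice of about 10 weeks with the genotype MC-TRAP (Drd2-Cre;Eef1a1LSL.eGFPL10a/+), in which Cre driven by the Drd2 gene's regulatory sequences switches on tagged ribosomes, mainly in mossy cells (MCs), the glutamatergic neurons of the dentate hilus. Tissue of 5 mice was pooled for each library, which makes the pool the replicate. Hippocampi of 25 mice were divided to give both kinds of tissue, so the groups share animals, and as no source says which pools do, the tests treat the 10 libraries as independent. Both groups carried the same alleles and received no treatment. The groups differ in the piece of hippocampus dissected. The dorsal piece was the shorter part of its length and the ventral piece all of the rest. The ventral subiculum was dissected away, though the authors allow that a little subicular tissue may have stayed.

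The Drd2-Cre line also labels some interneurons and other neurons. TRAP enriches tagged ribosomes without removing all other RNA, so the libraries are not pure. The authors describe the labeled population as MC-enriched, from histology and PCR. The libraries include no unbound fraction, so their counts do not measure that enrichment. Gria2, a glutamate receptor subunit gene abundant in MCs, was read at 1143 ± 98.0 CPM (counts scaled to a common library total; SD, n = 5 pools) in dorsal libraries and at 651 ± 73.0 CPM in ventral ones, and Calb2, the gene of the ventral MC marker calretinin, at 65.2 ± 9.32 and 616 ± 94.6 CPM. The dorsal and ventral labels separated in Calb2. These are 2 of 9 MC markers listed, which summed to 1993 to 2178 CPM in dorsal and 1985 to 2278 CPM in ventral libraries. Of 8 tested for a difference, 5 had a higher fitted level in dorsal and 3 in ventral libraries. Interneuron markers were also present, with Gad2, a GABA-synthesizing enzyme gene, at 2853 ± 453 and 3174 ± 407 CPM. The 11 interneuron markers listed summed to 3605 to 4860 CPM in dorsal and 4365 to 5674 CPM in ventral libraries, above the MC marker sums. Sums over unlike marker lists do not give shares of cells. Levels of the members are therefore those of mixed libraries and not of MCs alone. Dorsal libraries held 11138676 to 16779821 counts on genes and ventral libraries 11618625 to 20594364 (exact permutation test, two-sided, p = 0.421). The share of counts assigned to no gene was 21.8 to 33.9% in dorsal and 11.6 to 19.3% in ventral libraries, with no overlap (p = 0.00794, the smallest that 5 against 5 allows in the same exact test).

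HCN channels open when the membrane hyperpolarizes and carry an inward current, Ih, of sodium and potassium ions that sets the resting potential, the input resistance and rhythmic firing of neurons. Subunits assemble as tetramers, each with a pore and a cytoplasmic cyclic nucleotide-binding domain, and cAMP shifts their opening to less negative voltages, strongly in HCN2 and HCN4 and little in HCN3. TRIP8b binds the cyclic nucleotide-binding domain, where it opposes cAMP, and holds the last residues of the subunit in its tetratricopeptide repeats, through which its splice forms raise or lower the number of channels at the surface.

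The coding ends of the pore subunits are shown because they encode the C-terminal tripeptide that TRIP8b holds. Each line gives the last 30 coding bases on the gene's strand, with the last 3 codons before the stop in capitals, from the GENCODE M21 transcripts on GRCm38. The windows are chr10:79735511-79735540 on the plus strand for Hcn2, chr3:89147599-89147628 on the minus strand for Hcn3 and chr9:58860734-58860763 on the plus strand for Hcn4, each within 1 exon.
Hcn2: gcgcgctcgcgcctctctTCCAACTTGtga
Hcn3: agaggtccccaaatttctGCCAACATGtga
Hcn4: gtacgctccaaactgccgTCTAATTTAtga
The capitals encode serine, asparagine and leucine in both Hcn2 and Hcn4, and alanine, asparagine and methionine in Hcn3. As bases, they matched at 7 of 9 between Hcn2 and Hcn3, at 6 of 9 between Hcn2 and Hcn4 and at 4 of 9 between Hcn3 and Hcn4. The base matches therefore do not rank the likeness of the tripeptides. Over the last 27 bases before the stop, 12 to 15 were identical in each pair. No run of 50 bases was shared between the transcripts of any pair of the 4 genes, so a full-length exact match of a 50-base read could not be divided between members.

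Hcn2 (ENSMUSG00000020331) lies on chromosome 10 at 79716634-79736108 of GRCm38, on the plus strand, with 3195 bp of exons. Hcn3 (ENSMUSG00000028051) lies on chromosome 3 at 89146074-89160196 on the minus strand, with 4154 bp of exons, of which 711 bp (17.1%) are also annotated as exons of the neighboring gene Pklr, so that reads from that stretch are uncertain. Hcn4 (ENSMUSG00000032338) lies on chromosome 9 at 58823412-58863175 on the plus strand, with 6118 bp of exons. Pex5l (ENSMUSG00000027674) lies on chromosome 3 at 32949408-33143247 on the minus strand, with 8846 bp of exons, of which 364 bp (4.11%) are shared with 4930419G24Rik and Gm37459. The annotation gives Pex5l 12 transcripts, and gene counts do not separate its splice forms.

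Of the 4 members, Hcn4 alone was called. It was 4.49-fold higher in ventral libraries, whereas Hcn2 and Hcn3 did not pass the test and Pex5l was modestly higher in dorsal libraries, by a difference that passed the p threshold and not the fold threshold. A gene was called dorsal- or ventral-enriched where the edgeR quasi-likelihood test gave a Benjamini-Hochberg adjusted p below 0.05 and the log2 ratio of the group mean CPM values, each plus 1, exceeded 0.58 in either direction. All 4 members passed the filter of more than 1 CPM in at least 2 libraries. Of the 16806 genes tested, 25.5% were called in either direction and 9.85% were called ventral-enriched, so 1 member of 4 is near the background share and says nothing about the members as a set. The median log2 fold change of all tested genes was -0.0044.

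HCN4 is the subunit with the slowest opening and a strong response to cAMP, and is best known from cardiac pacemaking and thalamic relay neurons. Hcn4 was read at 0.376, 0.845, 0.613, 0.841 and 0.393 CPM in dorsal replicates 1 to 5. In ventral replicates 1 to 5 it was read at 0.943, 4.93, 4.22, 2.15 and 3.26 CPM. The groups did not overlap, although ventral replicate 1 lay close to the highest dorsal libraries and the ventral values spread over a wide range. Means were 0.614 ± 0.229 and 3.10 ± 1.60 CPM (SD, n = 5 pools each), and the log2 fold change, dorsal over ventral, was -2.17 (SE 0.50, edgeR adjusted p = 0.00432). Hcn4 passed the expression filter through its ventral libraries alone, and without that filter its log2 fold change was -2.17 (adjusted p = 0.00124). The dorsal level rests on 45 counts over 5 libraries, against 226 in the ventral libraries, and the 4 counts of dorsal replicate 1 have an exact Poisson 95% interval of 1.09 to 10.2 counts, which covers counting error alone. With the share of counts outside genes as a covariate, the value was -3.19 (SE 1.08) and the call was lost (adjusted p = 0.0788).

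Markers of other cells were read in the same libraries. The summed level of 11 interneuron markers was 3605 to 4860 CPM in dorsal and 4365 to 5674 CPM in ventral libraries, with 3 of 11 called ventral-enriched (Sst, Pvalb and Lhx6, 27.3% against 9.85% of all tested genes) and none at 0 in all libraries. Counted without the p threshold, 1 had a higher fitted level in dorsal and 10 in ventral libraries (median log2 fold change -0.40). With GC and length correction none of the 11 was called ventral-enriched and 1 was called dorsal-enriched. The median log2 fold change was then -0.35. Of 5 tested thalamic markers, 3 had a higher fitted level in dorsal and 2 in ventral libraries (median log2 fold change 0.019), and 1, the glutamate transporter gene Slc17a6, was called ventral-enriched, at 11.5 ± 1.76 and 29.8 ± 4.64 CPM. The 6 markers listed summed to 67.7 to 78.2 CPM in dorsal and 68.8 to 97.3 CPM in ventral libraries. The part of these cells in the Hcn4 difference was not tested. In bulk libraries such as these, fewer cells expressing a gene and less of its mRNA per cell cannot be told apart.

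HCN2 opens faster than HCN4, responds strongly to cAMP and is widespread in the brain. Hcn2 was read at 1.13, 4.81, 3.41, 3.48 and 3.61 CPM in dorsal replicates 1 to 5. In ventral replicates 1 to 5 it was read at 3.11, 1.41, 1.69, 3.67 and 1.98 CPM. The groups overlapped, with dorsal replicate 1 below every ventral library and the other 4 dorsal libraries above 4 of the 5 ventral ones. Means were 3.29 ± 1.34 and 2.37 ± 0.971 CPM, and the log2 fold change was 0.48 (SE 0.37, 95% interval -0.32 to 1.27, edgeR adjusted p = 0.338). The interval spans both no difference and a change past the fold threshold. With GC and length correction the value was 0.75 (adjusted p = 0.0752), and with the share of counts outside genes as a covariate 0.077 (adjusted p = 0.965).

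HCN3 opens slowly and is little affected by cAMP. Hcn3 was read at 0.659, 2.34, 3.20, 2.10 and 2.51 CPM in dorsal replicates 1 to 5. In ventral replicates 1 to 5 it was read at 3.72, 5.46, 2.20, 3.92 and 3.30 CPM. Ventral libraries lay higher apart from ventral replicate 3, which fell among the dorsal ones. Means were 2.16 ± 0.936 and 3.72 ± 1.18 CPM, and the log2 fold change was -0.72 (SE 0.35, 95% interval -1.47 to 0.041). The edgeR adjusted p was 0.131, so Hcn3 did not pass the test. It was -0.44 with GC and length correction and -1.16 with the covariate, and did not pass in either (adjusted p = 0.286 and 0.383).

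Pex5l was the best-covered member, with 11120 counts in the dorsal and 9121 in the ventral libraries. It was read at 157, 147, 164, 164 and 162 CPM in dorsal replicates 1 to 5. In ventral replicates 1 to 5 it was read at 117, 88.8, 143, 120 and 114 CPM. Every dorsal library lay above every ventral one, and the dorsal values were close together. Means were 159 ± 7.33 and 117 ± 19.3 CPM, a 1.36-fold difference (log2 fold change 0.44, SE 0.12, edgeR adjusted p = 0.0106), and the log2 ratio of 0.44 stayed under the threshold of 0.58. With the share of counts outside genes as a covariate the log2 fold change was 0.29 and did not pass the p threshold (adjusted p = 0.456). Groups failed to overlap for Hcn4 and Pex5l, 2 of the 4 members, against 18.2% of all tested genes. With 4 genes, and Hcn4 past the expression filter through its ventral libraries alone, this count says nothing about the members as a set.

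Astrocyte and oligodendrocyte markers gave higher sums in dorsal libraries, with no overlap. The summed level of 8 astrocyte markers was 1877 to 2131 CPM in dorsal and 692 to 1252 CPM in ventral libraries, with 5 called dorsal-enriched and 1 ventral-enriched (62.5% and 12.5%, against 15.7% and 9.85% of all tested genes), and that of 8 oligodendrocyte markers was 2603 to 3098 and 994 to 1847 CPM, with 5 called dorsal-enriched (62.5%). Microglial markers summed to 24.8 to 27.9 and 15.6 to 35.9 CPM, with 1 of 7 called dorsal-enriched. Among 6 granule cell markers, Prox1 was called dorsal-enriched and Calb1 ventral-enriched. The part of these cells in the Pex5l difference was not tested.

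**Figure D1:**
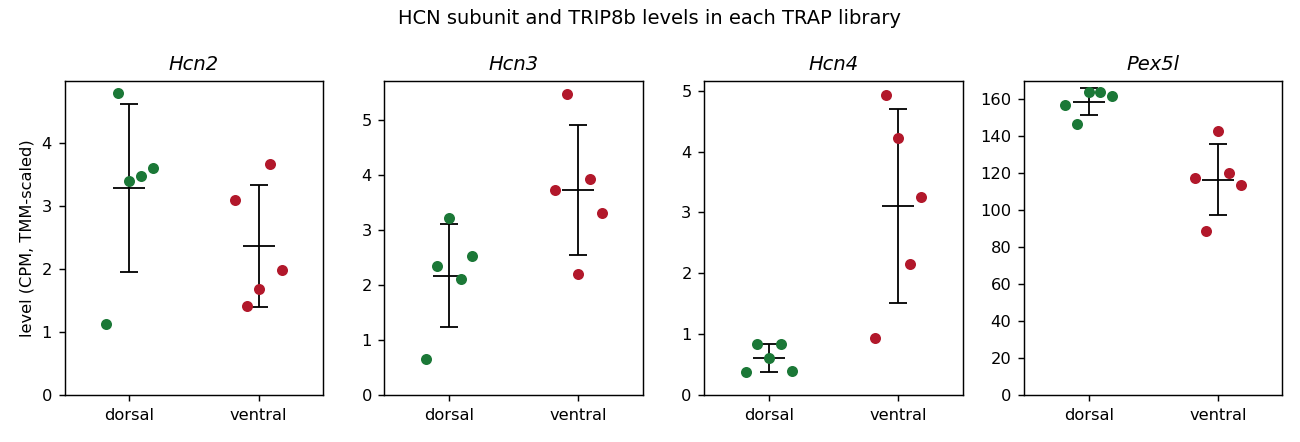
Level of each member in the 5 dorsal (green) and 5 ventral (red) libraries, in CPM with TMM scaling on a linear axis that differs between panels, points in replicate order, with the mean and SD. Hcn4 lay between 0.376 and 0.845 CPM in dorsal and between 0.943 and 4.93 CPM in ventral libraries, Pex5l did not overlap either, and Hcn2 and Hcn3 overlapped.

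Levels of different genes were compared per kilobase of exon. Transcript GC content differed (Hcn2 65.2%, Hcn3 58.3%, Hcn4 58.0%, Pex5l 49.1%). The GC correction used here acts between libraries, so levels of different genes were not corrected for it. The Hcn3 length includes the 711 bp shared with Pklr. In dorsal libraries the order was Pex5l at 17.9 ± 0.828, Hcn2 at 1.03 ± 0.418, Hcn3 at 0.521 ± 0.225 and Hcn4 at 0.1003 ± 0.0375 CPM per kb (SD, n = 5 pools). Each dorsal library gave this order, with Hcn3 at 0.374 to 0.723 times Hcn2 and Hcn4 at 0.106 to 0.388 times Hcn3. In ventral libraries the order of the means was Pex5l at 13.2 ± 2.18, Hcn3 at 0.895 ± 0.284, Hcn2 at 0.742 ± 0.304 and Hcn4 at 0.507 ± 0.261 CPM per kb. The ventral order below Pex5l was not shared by the libraries, since Hcn3 was 0.822 to 2.98 times Hcn2, Hcn4 was 0.172 to 1.31 times Hcn3, and Hcn4 was 0.159 to 1.83 times Hcn2. Pex5l exceeded Hcn2, Hcn3 and Hcn4 in every library.

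The balance of the members within a library does not depend on how libraries are scaled to each other. The balance shifted toward Hcn3 and Hcn4 relative to Hcn2 in ventral libraries, and Pex5l was higher relative to Hcn3 and Hcn4 in dorsal libraries. The 6 pairwise ratios were taken as log2 of the counts with 0.5 added, and group means were compared by exact permutation tests, two-sided, over every split of the libraries into 5 and 5, with Benjamini-Hochberg adjustment over the 6. These tests treat the libraries as exchangeable, although the groups share animals, and no paired form of them was run. A ratio shows that a pair changed unequally and not which of the pair changed.

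The ratio of Hcn3 to Hcn2 counts was 0.583, 0.486, 0.940, 0.603 and 0.696 in dorsal replicates 1 to 5. In ventral replicates 1 to 5 it was 1.20, 3.88, 1.30, 1.07 and 1.67. All dorsal libraries held fewer Hcn3 than Hcn2 counts and all ventral libraries more. The mean log2 ratios were -0.62 ± 0.35 and 0.67 ± 0.73, a difference of -1.29 (exact p = 0.00794, the smallest possible, adjusted p = 0.0238). Neither gene passed the test on its own.

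The ratio of Hcn4 to Hcn2 counts was 0.333, 0.176, 0.180, 0.241 and 0.109 in dorsal replicates 1 to 5. In ventral replicates 1 to 5 it was 0.304, 3.5, 2.5, 0.586 and 1.64. Ventral replicate 1 fell within the dorsal range and the other 4 ventral libraries lay above it. The difference of the mean log2 ratios was -2.55 (-2.29 ± 0.59 and 0.27 ± 1.45, exact p = 0.0159, adjusted p = 0.0317), and without dorsal replicate 4 it was -2.62 with an adjusted p of 0.0595 by the exact test. For Hcn4 to Hcn3 the mean log2 ratios were -1.67 ± 0.76 and -0.41 ± 1.07, and the difference of -1.26 did not pass the test (exact p = 0.0714, adjusted p = 0.0857). Without ventral replicate 1 that difference was -1.65 and passed (exact adjusted p = 0.0357).

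The ratio of Pex5l to Hcn4 showed the largest difference of the 6, with log2 values of 8.002 ± 0.54 in dorsal and 5.41 ± 1.02 in ventral libraries and no overlap (difference 2.59, exact p = 0.00794, adjusted p = 0.0238). Per kilobase, the median library held Pex5l at 185 times Hcn4 in the dorsal and 24.1 times in the ventral group. For Pex5l to Hcn3 the log2 values were 6.33 ± 0.85 and 5.0 ± 0.70, with overlap (difference 1.33, exact p = 0.0317, adjusted p = 0.0476). That call did not hold without dorsal replicate 1 (difference 0.97, exact adjusted p = 0.0595), whose ratio was far above those of the other dorsal libraries. It was also lost without dorsal replicate 4 or without ventral replicate 1, 2, 4 or 5, with exact adjusted p of up to 0.0833. For Pex5l to Hcn2 the log2 values were 5.71 ± 0.80 and 5.67 ± 0.55, a difference of 0.039 with an SE of 0.433 (exact p = 0.952), which leaves room for a change in either direction.

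**Figure D2:**
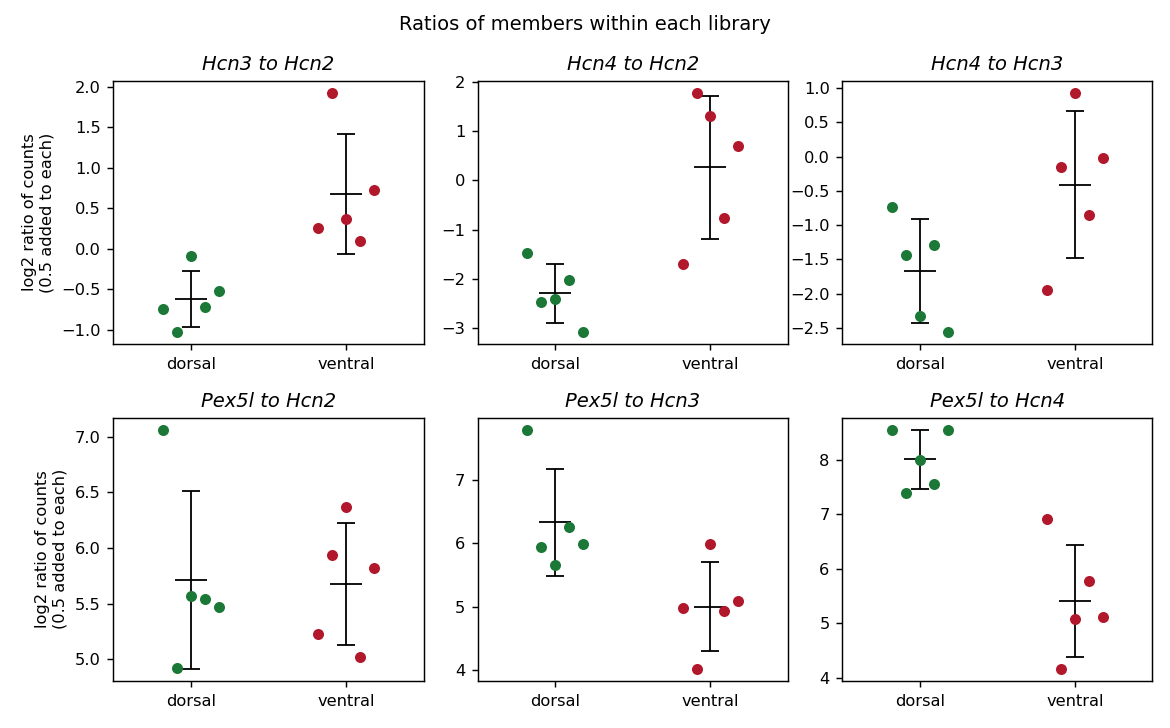
Log2 ratio of the counts of each pair of members, with 0.5 added to each count, in the 5 dorsal (green) and 5 ventral (red) libraries in replicate order, with the mean and SD. The groups separated for Hcn3 to Hcn2 and for Pex5l to Hcn4, and overlapped for the other 4 pairs.

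Among genes whose products bind or modify HCN channels or TRIP8b, affect their expression, or are related to TRIP8b, 1 was called. Of 16 genes listed, 14 were tested, 1 was called dorsal-enriched (7.14%, against 15.7% of all tested genes) and none ventral-enriched (against 9.85%). Counted without the p threshold, 8 had a higher fitted level in dorsal and 6 in ventral libraries, and the median log2 fold change was 0.046. The called gene was Mrvi1, which encodes IRAG, a protein that alters the cAMP response of HCN4. Mrvi1 was read at 7.58 ± 2.87 CPM in dorsal pools, against 1.57 ± 1.23 CPM ventrally (log2 fold change 2.32, SE 0.43, edgeR adjusted p = 0.00153), with overlap between the groups. With the share of counts outside genes as a covariate the log2 fold change was similar, and over all alternatives it lay between 2.13 and 2.72, but the call was lost (adjusted p = 0.108). Its relative Lrmp, which also acts on HCN4, and Cav3 were under the expression filter.

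Among the partners that passed the p threshold and not the fold threshold, Vapb and Vapa, which encode membrane proteins of the endoplasmic reticulum that bind HCN2, were lower in dorsal libraries. Vapb was read at 170 ± 12.7 and 234 ± 32.8 CPM (log2 fold change -0.46, edgeR adjusted p = 0.00618), with no overlap, and Vapa at 127 ± 21.9 and 168 ± 24.7 CPM (-0.41, adjusted p = 0.0275). Ptpra, a receptor tyrosine phosphatase gene, was read at 69.1 ± 12.3 and 50.2 ± 3.53 CPM (0.46, edgeR adjusted p = 0.0163). The remaining 10 had adjusted p from 0.0582 to 0.879.

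Kctd3, Kcne2, Rab8b and Pex5 were among these 10. Kctd3, whose product binds HCN3, was read at 52.8 ± 5.20 and 65.2 ± 8.63 CPM (log2 fold change -0.30, edgeR adjusted p = 0.0753). Kcne2, a small beta subunit of several channels, was read at 1.36 ± 0.777 and 0.704 ± 0.565 CPM (0.88, edgeR adjusted p = 0.249). Rab8b, the small GTPase for which TRIP8b is named, was read at 173 ± 7.99 and 166 ± 42.4 CPM (0.068, edgeR adjusted p = 0.739). Pex5, the peroxisomal import receptor related to Pex5l, was read at 8.27 ± 1.86 and 12.2 ± 3.399 CPM (-0.52, edgeR adjusted p = 0.0933), the opposite sign to Pex5l.

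The others are more general regulators. Rest, a transcriptional repressor with neuronal channel genes among its targets, had a log2 fold change of -0.43 (edgeR adjusted p = 0.365). The kinases Src (-0.24) and Mapk14 (0.023), the ubiquitin ligase gene Nedd4l (0.083) and the caveolin gene Cav1 (0.25) lay closer to 0. Flna, the gene of the actin-binding protein filamin A, reached 0.79 with an edgeR adjusted p of 0.0582.

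**Figure D3:**
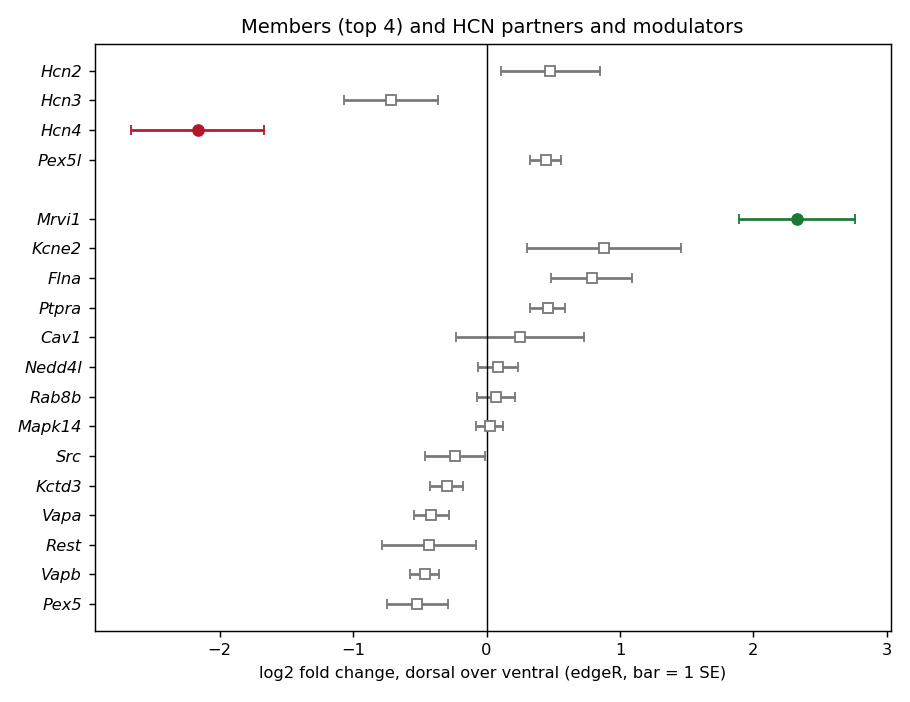
Log2 fold change, dorsal over ventral, with 1 SE for the 4 members (top) and the 14 tested partners and modulators. Filled green and red points were called dorsal- and ventral-enriched and open grey squares were not called, and Hcn4 at -2.17 and Mrvi1 at 2.32 were the called genes.

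Channels that share the cyclic nucleotide-binding fold with HCN subunits were mostly under the filter. Of 14 listed, 6 were tested, all of the ether-a-go-go potassium channel family, and the subunits of the cyclic nucleotide-gated channels of sensory cells were not, Cnga2 being at 0 in every library. Kcnh4 and Kcnh8, of the same potassium channel family, were not tested either. Kcnh7 was called dorsal-enriched, at 247 ± 17.6 and 108 ± 17.2 CPM (log2 fold change 1.20, SE 0.11, edgeR adjusted p = 1.8e-05). It makes up 16.7% of the 6, near the 15.7% of all tested genes, and none was called ventral-enriched (against 9.85%). The median of the 6 was -0.040.

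Adenylyl cyclases make cAMP, the ligand of HCN channels, and phosphodiesterases break it down. Of 10 adenylyl cyclase genes 9 were tested, 4 were called dorsal-enriched (44.4%, against 15.7% of all tested genes) and none ventral-enriched (against 9.85%). The median of the 9 log2 fold changes was 0.50. Adcy1, a calcium-stimulated cyclase, was read at 743 ± 71.5 and 330 ± 44.7 CPM (1.17, SE 0.11). Adcy5 (0.65), Adcy6 (0.80) and Adcy10 (2.53), the last from a low level of 0.887 and 0.150 CPM, were the other called members. Adcy10 passed the expression filter through its dorsal libraries alone. It had a value in 22 alternatives and lost its call with the share of counts outside genes as a covariate (edgeR adjusted p = 0.0961). With more than 1 CPM required in at least 5 libraries, 8 cyclases were tested and 3 were called dorsal-enriched. Adcy6 lost its call without dorsal replicate 4 or 5, without ventral replicate 5 and in 2 other alternatives (adjusted p up to 0.223), and Adcy5 lost it without ventral replicate 2 and in 1 other. The summed astrocyte and oligodendrocyte markers given above were also higher in dorsal libraries, and their part in these differences was not tested.

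Of 18 cyclic nucleotide phosphodiesterase genes 16 were tested, 3 were called ventral-enriched (18.8%, against 9.85% of all tested genes) and 1 dorsal-enriched (6.25%, against 15.7%), and their median log2 fold change was -0.14. Pde1a, a calcium-dependent enzyme, was read at 321 ± 33.8 and 532 ± 31.5 CPM (log2 fold change -0.73, SE 0.093, edgeR adjusted p = 0.000133). Pde1c had a log2 fold change of -1.15 and Pde9a, a cGMP-specific enzyme gene, one of -1.22. Pde8a, a cAMP-specific enzyme gene, was the dorsal-enriched one, at 1.23.

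Of the other conductances that act near the resting potential, 18 genes are described, all of them tested. Dorsal calls numbered 5 (27.8%, against 15.7% of all tested genes) and ventral calls 3 (16.7%, against 9.85%), and the median of the 18 log2 fold changes was 0.30. With GC and length correction the calls were 7 dorsal and 1 ventral, and Kcnk3 and Cacna1i lost theirs. The dorsal-enriched genes were potassium channel genes of the inward rectifier and leak families, namely Kcnj2 (1.32), Kcnj6 (1.08), Kcnk9 (0.99), Kcnj3 (0.92) and Kcnk2 (0.74). The ventral-enriched genes were Kcnk3 (-1.07), Kcnj9 (-0.94) and the T-type calcium channel gene Cacna1i (-0.71). Kcnk3 lost its call in 10 of 25 alternatives, among them those without dorsal replicate 1, 3, 4 or 5 and without ventral replicate 1 or 4. Cacna1i lost it in 7, among them those without dorsal replicate 2 or 5 and without ventral replicate 4 or 5. Kcnj2 lost it without ventral replicate 5 and in 2 others.

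**Figure D4:**
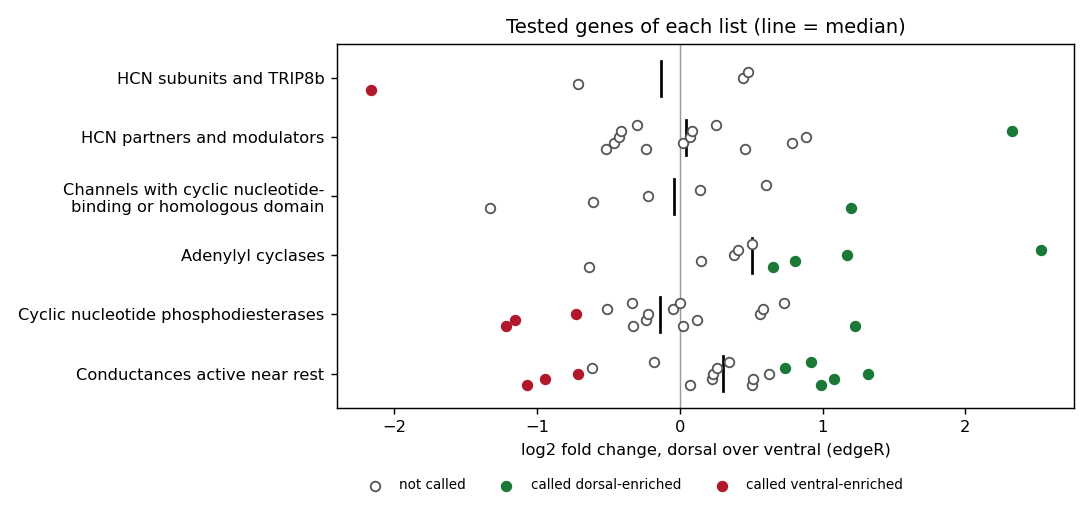
Log2 fold change, dorsal over ventral, of every tested gene of the 4 members and of 5 lists, with the median of each as a vertical bar. Filled points were called (green dorsal, red ventral), and adenylyl cyclases had 4 dorsal calls and no ventral ones, whereas phosphodiesterases had 1 and 3.

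The genes whose pattern over the 10 libraries was most like each member were found by Pearson's r of log2(CPM + 1) among 10075 protein-coding genes above a mean of 5 CPM (10074 for Pex5l), as a description in which all points share their library and its group. For Hcn4 they were Dand5 (r = 0.966), Flii (0.959) and 6330403K07Rik (0.949). For Pex5l they were Stim2, Lrrtm4 and Prox1 (each 0.977). For Hcn3 they were Pacsin1 (0.983), Rab8a (0.983) and Prmt2 (0.980), and for Hcn2 Asphd1 (0.929), Tbkbp1 (0.925) and Plec (0.925).

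**Figure D5:**
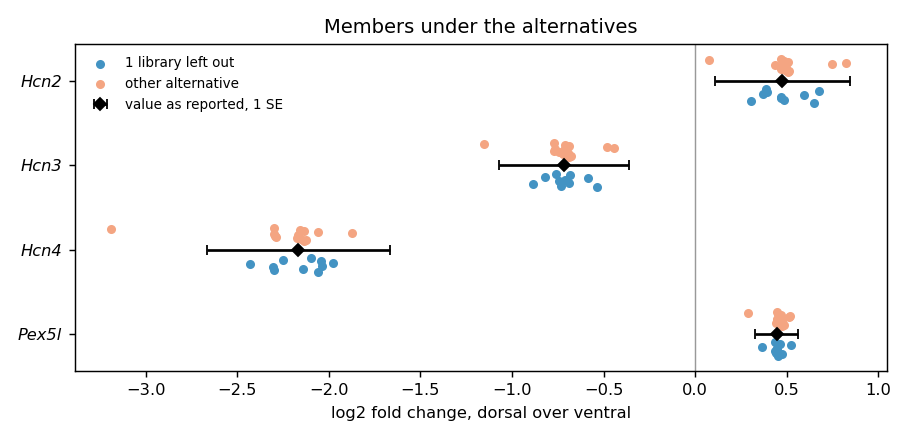
Log2 fold change of each member, dorsal over ventral, as reported (black, 1 SE) and under alternatives that leave out 1 library (blue) or change another choice (orange). Each member kept its sign in every alternative shown, with Hcn4 from -3.19 to -1.87 and Pex5l from 0.29 to 0.52.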

How the data were processed

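The authors converted 500 pg of TRAP RNA per pool to cDNA (Ovation RNAseq V2, then TruSeq v2 libraries) and sequenced paired 50 bp ends. Reads were aligned to GRCm38 with STAR 2.5.2b and the authors deposited raw counts per gene from HTSeq 0.7.2. The annotation release and strand setting are not given in the sources used here. Rows that name no gene were left out of library sizes, and their largest class, no feature, held 21.8 to 33.9% of dorsal and 11.6 to 19.3% of ventral counts.

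From these counts, GENCODE M21 gave symbols for 54809 of 54838 identifiers, and edgeR 4.0.16 (R 4.3.3) quasi-likelihood tests with TMM factors were fitted to all 10 libraries, with more than 1 CPM in at least 2 libraries required and Benjamini-Hochberg adjustment over 16806 genes. CPM values are TMM-scaled. A count of 3 corresponds to 0.146 to 0.269 CPM. Intervals cover counting error or the fit alone. The main edgeR fit and its calls were tested on simulated data with independent libraries. The ratio tests, the offsets and the covariate and block fits were not tested in this way. Alternatives used other scalings, filters and tests (DESeq2 1.42.0 among them), GC and length offsets (mgcv 1.9.3), the replicate number, a covariate and each library left out. The edgeR 3 dispersions were added after seeing the data. The members and lists were chosen with earlier results of these data known. Named genes are the members, every tested partner, called genes of the other lists (up to 6 each by fold change), markers needed, and the 3 most similar genes per member. Some genes are not reported here and were left out of the lists and their counts after the values were seen.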

Additional observations from a re-analysis of the deposited data

Results flagged for a closer look

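The log2 ratio of Pex5l to Hcn3 in dorsal replicate 1 was 7.80, whereas the other 4 dorsal libraries lay between 5.66 and 6.27. Its gap to the nearest library, as a share of the group's range, passed Dixon's critical value of 0.71 for 5 samples. The ratio rests on 7 Hcn3 counts in that library. The same library was also the lowest dorsal one for Hcn2 (1.13 CPM) and Hcn4 (0.376 CPM), with Pex5l at 157 CPM. Without it, the Pex5l to Hcn2 difference was -0.298 and did not pass (exact adjusted p = 0.349). Of 20 groups of values tested, 1 was marked in this way, and chance marks about 1 group in 20.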

How the results depend on the processing

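Over the alternatives that gave a value, each member kept its direction, Pex5l, Hcn2 and Hcn3 were called in none, and Hcn4 was called in all but 1. With the share of counts outside genes as a covariate, the called genes fell from 4291 (2636 dorsal, 1655 ventral) to 1173 (834 dorsal, 339 ventral). Hcn4 was then not called (-3.19). That share did not overlap between the groups, so the fit has little information to separate it from region. Hcn4 failed the stricter filter, more than 1 CPM in at least 5 libraries, and had no value there. With 1 library left out, Hcn4 ranged from -2.43 to -1.98, Hcn2 from 0.30 to 0.68, Hcn3 from -0.88 to -0.54 and Pex5l from 0.37 to 0.52 (log2), and the count of called genes from 3383 to 4482. The Hcn4 to Hcn2 ratio ranged from -3.04 to -2.18, Hcn4 to Hcn3 from -1.65 to -0.927, Pex5l to Hcn3 from 0.966 to 1.58, Pex5l to Hcn2 from -0.298 to 0.238, Hcn3 to Hcn2 from -1.44 to -0.982 and Pex5l to Hcn4 from 2.28 to 2.97. Pex5l to Hcn2 changed sign as a ratio of group mean CPM (-0.027) and with GC and length correction (-0.27), and the cause was not tested. The covariate left 1 of 4 adenylyl cyclase calls and 1 of 8 calls among the conductances near rest, beside 1173 of 4291 among all tested genes. With lists this small, these losses do not set the lists apart from all tested genes. Deviations from the group means showed little likeness by replicate number. Same-numbered dorsal and ventral libraries correlated at -0.0317 to 0.0695, and 3 of 10 correlated best with their own number. These correlations cannot show whether same-numbered libraries share mice. With the replicate block, 4330 genes were called and Hcn4 was at -2.30, Pex5l at 0.46, Hcn2 at 0.44 and Hcn3 at -0.76, which changed no member's call. Hcn2 and Hcn3 moved by over 1.5 times with the covariate (0.077 and -1.16) and with GC and length correction (0.75 and -0.44, and with the block as well, Hcn2 0.82), as did Pex5l with the covariate (0.29). Hcn2 also moved by over 1.5 times without dorsal replicate 2 (0.30). Depth limits Hcn4 most, with 4 to 14 counts per dorsal library.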
